A study of Homo sapiens with 78 samples.

Results

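MYC, MYCN, MAX, MXD4, MGA and MNT are 6 genes of the MYC network, chosen by name among the 58388 genes to which transcripts of the deposited tables were assigned. For each gene, the counts of its Ensembl transcripts were added up in each of 78 wells that were sorted to hold 1 cell. A375 is an established human melanoma line and Jurkat, clone E6-1, a human T cell leukemia line. A375 cells, stained for CD47, were sorted into PBS, and Jurkat cells, stained for CD81, into lysis solution, each after exclusion of dead cells with 7-AAD. Libraries of total RNA came from either of 2 kits of the same maker, Pico Input Mammalian v2 of the SMARTer series (#634413) and SMART-Seq Stranded (#634444), with 21 A375 and 18 Jurkat wells per kit. No cell received a drug or carried a transgene. According to the paper, A375 cells were grown in DMEM and Jurkat cells in RPMI medium. Culture medium, sorting liquid and library index ranges thus follow the cell line. Their part in a difference between the lines cannot be told apart from that of the line itself. Index ranges also follow the kit within each line, and each kit was used on other cells. A difference between kits thus carries the same limit. The sources name no separate cultures, so the wells of 1 line and kit are cells of 1 sample. Differences between groups are therefore given with counting intervals and the spread over wells, without a p-value, and both cover neither culture nor sort.

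MYC and MYCN are transcription factors that drive growth and division. Each binds DNA as a dimer with MAX, at the E-box CACGTG, and raises the transcription of genes for ribosome production, nucleotide synthesis and metabolism. The MXD proteins, among them MXD4, and the related proteins MNT and MGA compete for MAX and repress from the same sites. MYC is a well known driver of T cell leukemia, and MYCN is best known from neuroblastoma.

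Depth differed strongly among the A375 wells. Total counts per well ranged from 909 to 2455701 (A375, #634413), from 1230 to 2567265 (A375, #634444), from 413959 to 1443975 (Jurkat, #634413) and from 447397 to 1232381 (Jurkat, #634444). In A375, 9 wells fell below 25% of the median total of all wells (203424 counts), and in 2 deeper A375 wells of kit #634413 under 50% of the Ensembl counts were protein coding. The remaining 15, 16, 18 and 18 wells are called intact here. According to the paper, the sorts also included control wells without a cell. The labels name a cell line for every well, and whether the wells of the lowest totals held a cell was not tested. T cell markers outnumbered melanoma markers in 18 of 18 Jurkat wells with each kit. Melanoma markers outnumbered T cell markers in 19 of 21 and 17 of 21 A375 wells, and the other 2 and 4 wells had neither set higher. The melanoma set was SOX10, MITF, PMEL, MLANA, TYR, DCT, S100B, AXL, CAV1 and SPARC. Among the melanoma markers, TYR and DCT, which mark pigment cells, were nearly absent from A375 (6 and 8 counts of TYR, 17 and 8 counts of DCT). SOX10, a neural crest factor, stood at 421 and 406 CPM (counts per 1000000 protein coding counts) in A375 and at 0 and 0.574 CPM in Jurkat.

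Of the 6 members, 5 were in the RefSeq promoter table (GRCh38.p14), which holds 250 bases before and 50 bases after each annotated start. MYC was not among them. The E-box CACGTG, a palindrome that reads the same on both strands, stood in 7.26% of all 35116 promoters. Among the members, the promoters of MXD4 and MNT held it, and the windows of MYCN, MAX and MGA did not. The stretches below show these 2 members, the 2 targets of the highest folds whose promoter held the motif (DUSP2 and PLK1), and LDHA and ODC1, 2 textbook MYC targets picked after their values were seen. Capitals mark the E-box. All stretches lie upstream of the start and read 5′ to 3′ on the strand of the gene.
MXD4, chr4:2262300-2262359, minus strand: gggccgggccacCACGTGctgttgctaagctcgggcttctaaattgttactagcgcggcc
MNT, chr17:2401221-2401280, minus strand: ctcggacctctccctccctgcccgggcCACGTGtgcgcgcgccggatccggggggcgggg
DUSP2, chr2:96145521-96145580, minus strand: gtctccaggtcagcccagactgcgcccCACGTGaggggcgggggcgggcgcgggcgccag
PLK1, chr16:23678664-23678723, plus strand: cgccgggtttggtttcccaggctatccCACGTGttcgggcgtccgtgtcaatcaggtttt
LDHA, chr11:18394351-18394410, plus strand: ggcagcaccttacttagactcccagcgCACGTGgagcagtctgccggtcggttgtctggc
ODC1, chr2:10448013-10448072, minus strand: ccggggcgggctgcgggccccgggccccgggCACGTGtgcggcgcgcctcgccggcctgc
The first base of the E-box lay 238 bases before the start in MXD4 and 193 bases before it in MNT. A match is a description of letters and says nothing of binding in these cells.

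Levels below are CPM of the counts summed over the wells of a group, with a 95% exact Poisson interval. PCR reads without molecular identifiers are not independent molecules, so every interval covers counting error only. A gene was called when its fold between the lines was at least 2 in the same direction with both kits. Of 13642 genes with at least 200 counts over all wells, 14.6% were called higher in Jurkat and 23.2% higher in A375. All 10 T cell markers were called higher in Jurkat, and all 6 of the 10 melanoma markers past the minimum higher in A375. The counts of each marker set came mostly from the line where it is high, so these calls are no check of the rule. All 6 members passed that minimum. MYCN and MAX were called higher in Jurkat and no member was called higher in A375. MYCN passed the minimum through Jurkat counts alone, so its call was close to fixed by that filter. The median log2 fold of all genes tested was -0.17 with kit #634413 and -0.12 with kit #634444. The call sat close to the threshold for several members. MAX passed at 2.02-fold with kit #634413, while MYC missed it at 1.94-fold with that kit, and MXD4 missed it at a log2 fold of 0.95 with kit #634444.

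MYC (ENSG00000136997, chromosome 8, plus strand) reached 41.4 CPM (37.9 to 45.1) in A375 and 80.4 CPM (75.7 to 85.4) in Jurkat with kit #634413, a log2 fold of 0.96 (0.81 to 1.11). With kit #634444, it reached 25.5 CPM (22.5 to 28.8) in A375 and 200 CPM (191 to 209) in Jurkat, a log2 fold of 2.97 (2.79 to 3.16). The direction was the same with both kits, and the size of the difference was larger with kit #634444. Cells and library index ranges also differ between the kits, so the part of the kit cannot be told apart from theirs.

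The single wells show how unevenly these counts were spread. In intact A375 wells, MYC ranged from 0 to 160 CPM with a median of 0 (#634413, n = 15), and from 0 to 88.8 CPM with a median of 12.5 (#634444, n = 16). In Jurkat wells, it ranged from 0 to 303 CPM with a median of 82.3 (#634413, n = 18), and from 0 to 668 CPM with a median of 213 (#634444, n = 18). The ranges of the lines overlapped with both kits. With kit #634444, 10 of 18 Jurkat wells lay above the highest A375 well, against 2 of 18 above the highest intact A375 well with kit #634413. Over all A375 wells of that kit, a well with a total of 153648 stood highest at 517 CPM, from 5.5 counts.

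MYC was at 0 in 4 of 18 Jurkat wells with each kit, among them the deepest Jurkat well, with 1443975 counts. At least 1 count was seen in 8 of 21 and 11 of 21 A375 wells and in 14 of 18 and 14 of 18 Jurkat wells. When intact wells were thinned to a total of 203424 counts, MYC had a count in 7 of 15 and 9 of 16 A375 wells and in 11 of 18 and 13 of 18 Jurkat wells. A single A375 well held 30.9% of the group's MYC counts with kit #634413, and 2 wells held 57.0%. Leaving out 1 well at a time moved the log2 fold from 0.67 to 1.36 (#634413) and from 2.74 to 3.38 (#634444). With kit #634413 the lowest value came without Jurkat replicate 10 and the highest without A375 replicate 10.

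**Figure D1:**
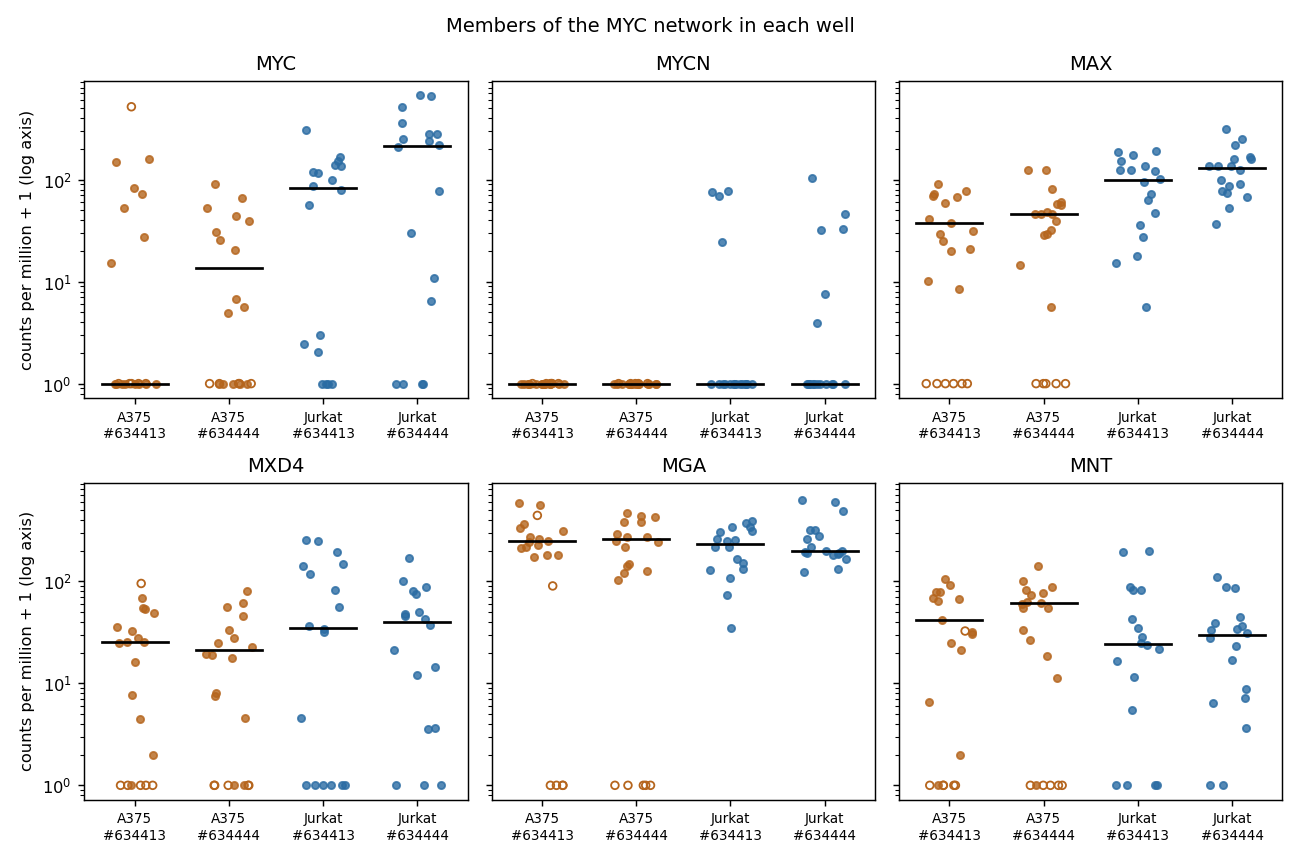
CPM plus 1, on a log axis, for each member in each well of the 4 groups. Filled points are intact wells, open points are the other A375 wells, and black lines are medians of the intact wells. MYC spread over more than 100 CPM within each Jurkat group, MYCN was above 0 only in Jurkat wells, and MGA was above 0 in every intact well.

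MYCN (ENSG00000134323, chr2:15940550-15947007, plus strand), the paralog of MYC, was counted only in Jurkat wells. With kit #634413, MYCN was counted in 4 of 18 Jurkat wells, with 46, 25, 45 and 79 counts in replicates 6, 11, 14 and 15. With kit #634444, it was counted in 6 of 18 wells, with 6, 1, 39, 25, 28 and 29 counts in replicates 2, 11, 12, 14, 16 and 18. In A375 it had 0 counts in 21 of 21 wells with each kit. Over the 15 and 16 intact A375 wells, this allows a share of wells of up to 21.8% and 20.6% (95% exact Clopper-Pearson interval, counting error only).

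Summed over wells, MYCN stood at 14.8 CPM (12.79 to 17.03) and 12.3 CPM (10.2 to 14.6) in Jurkat. Set against a floor of 3 counts per A375 group, Jurkat was at least 61.5-fold higher with kit #634413 and at least 42.7-fold higher with kit #634444. Leaving out 1 well at a time moved the log2 of these bounds from 5.31 to 6.05 (#634413) and from 4.95 to 5.53 (#634444), with the lowest values without Jurkat replicates 15 and 12. The share of Jurkat wells with a count was 22.2% (6.41 to 47.6) and 33.3% (13.3 to 59.0). The wells with MYCN had totals between 490489 and 1443975, and thinning to 203424 counts kept MYCN in 4 of 18 and 5 of 18 wells. The median Jurkat well was at 0 with both kits, and a single well held 40.5% of the MYCN counts with kit #634413. By transcript, MYCN-201 took 76.4% and 73.1% of the counts, and MYCN-202 the rest.

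MYC and MYCN were set side by side in the same wells. Of the 10 Jurkat wells with MYCN, 7 also had at least 1 count of MYC, as did 21 of the 26 Jurkat wells without MYCN. The well with the most MYCN (79 counts) had 0 counts of MYC. The well with 46 counts of MYCN had 1.0 count of MYC. Replicate 18 of kit #634444 had 29 counts of MYCN and 230.7 of MYC, so both were counted in the same cell there. Over the 18 wells of each kit, Spearman's rho between the 2 genes was -0.35 (#634413) and -0.18 (#634444), a description over cells of which most had 0 counts of MYCN.

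**Figure D2:**
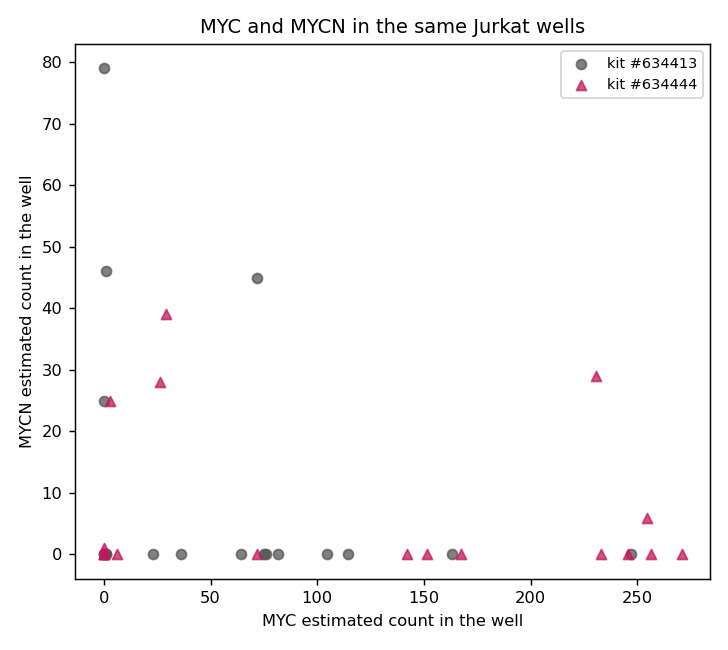
Estimated counts of MYC (x axis) and MYCN (y axis) in each of the 36 Jurkat wells, by kit. Most wells lie on the x axis, with 0 counts of MYCN, and the well with 79 counts of MYCN lies at 0 counts of MYC.

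MAX (ENSG00000125952, chr14:65006174-65102695, minus strand), the shared partner of the network, was called higher in Jurkat. It reached 45.9 CPM (42.3 to 49.9) in A375 and 92.8 CPM (87.6 to 98.1) in Jurkat with kit #634413, a log2 fold of 1.01 (0.868 to 1.158). With kit #634444, it reached 52.6 CPM (48.3 to 57.1) and 131 CPM (124 to 138), a log2 fold of 1.31 (1.17 to 1.46). Unlike MYC and MYCN, MAX was counted in every intact well of both lines.

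Intact A375 wells ranged from 7.51 to 90.6 CPM with a median of 36.4 (#634413), and from 4.62 to 122 CPM with a median of 44.99 (#634444). Jurkat wells ranged from 4.61 to 189 CPM with a median of 97.8, and from 35.5 to 315 CPM with a median of 128. The groups overlapped, and 10 of 18 and 9 of 18 Jurkat wells lay above the highest A375 well. Leaving out 1 well at a time moved the log2 fold from 0.883 to 1.157 (#634413) and from 1.22 to 1.52 (#634444). The 2-fold call on MAX was lost without any 1 of 17 of the 78 wells, all of kit #634413. These were A375 replicates 1, 3, 5, 9, 10, 12, 19, 20 and 21 and Jurkat replicates 9, 10, 11, 13, 14, 15, 17 and 18. The lowest value, 0.88, came without Jurkat replicate 15.

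The level of MAX in Jurkat also differed between blocks of library indexes, a split chosen after the data were seen. The cells were sorted into strips of 8 tubes and 8 samples were pooled during library preparation, and the wells fall into blocks of up to 8 consecutive indexes, 3 per group. Which wells shared a strip or pool is not given in the sources used here. With kit #634413, MAX stood at 26.1, 103 and 142 CPM in the 3 Jurkat blocks (indexes 50 to 56, 58 to 64 and 66 to 72, 6 wells each) and at 44.6 to 48.5 CPM in the A375 blocks. The first Jurkat block thus lay below A375 and the other two above it. With kit #634444, the Jurkat blocks stood at 119, 126 and 143 CPM, all above the A375 blocks at 40.2 to 65.5 CPM. Without 1 block at a time, the log2 fold ran from 0.60 to 1.40 (#634413), lowest without Jurkat indexes 66 to 72, and from 1.15 to 1.47 (#634444). The 2-fold call on MAX was lost without any 1 of 4 of the 12 blocks, all of kit #634413. These were the A375 blocks that start at indexes 2 and 10 and the Jurkat blocks that start at 58 and 66.

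The other members differed between blocks too. In the same Jurkat blocks of kit #634413, MXD4 stood at 25.1, 66.8 and 94.1 CPM, MNT at 79.5, 49.2 and 10.9 CPM and MYC at 92.4, 112 and 31.3 CPM. With kit #634444, MYC stood at 300.5, 129 and 159 CPM in the Jurkat blocks and at 9.06 to 55.8 CPM in the A375 blocks, which did not overlap. The log2 fold of MYC without 1 block ran from 0.55 to 1.32 and from 2.53 to 3.95, that of MXD4 from 0.70 to 1.41 and from 0.24 to 1.39, and that of MNT from -0.56 to 0.41 and from -1.22 to -0.81. That of MGA ran from -0.63 to -0.12 and from -0.40 to 0.03. The part of sorting and pooling in these values was not tested.

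MXD4 (ENSG00000123933, chr4:2247432-2262109, minus strand), a repressor that dimerizes with MAX, was also higher in Jurkat in both kits but met the 2-fold mark only with kit #634413. It reached 29.9 CPM (26.9 to 33.0) in A375 and 63.1 CPM (58.9 to 67.6) in Jurkat with that kit, a log2 fold of 1.08. With kit #634444, it reached 23.8 CPM (20.9 to 26.9) and 46.04 CPM (42.01 to 50.34), a log2 fold of 0.95. The Jurkat wells were widely spread, from 0 to 253 CPM with a median of 34.2 (#634413), and from 0 to 169 CPM with a median of 39.2 (#634444). Intact A375 wells ran from 0 to 68.02 CPM with a median of 24.7, and from 0 to 79.7 CPM with a median of 20.04. The groups overlapped, and 7 of 18 and 3 of 18 Jurkat wells exceeded the highest intact A375 well. Jurkat replicate 17 of kit #634444 held 136 of the 481 MXD4 counts of its group, and without it the log2 fold was 0.59.

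MGA (ENSG00000174197, chr15:41621134-41773081, plus strand) is a large MAX partner that joins a repressive Polycomb complex. Between the lines, it stayed under 2-fold in summed CPM with both kits. It reached 297 CPM (287 to 307) in A375 and 230 CPM (222 to 238) in Jurkat with kit #634413, and 280 CPM (270 to 290) and 252 CPM (242 to 262) with kit #634444. The log2 folds were -0.37 and -0.15, next to medians of -0.17 and -0.12 over all genes tested. From mean TPM over all wells they were -0.65 and 0.50, so that the direction turned with kit #634444. Over intact wells, mean TPM was 32.1 in A375 and 14.8 in Jurkat with kit #634413, more than 2-fold apart. With kit #634444 it was 22.7 in A375 and 24.4 in Jurkat, close to equal. MGA was counted in every intact well, with medians of 246 and 258 CPM in A375 and 233 and 196 CPM in Jurkat, and the ranges of the lines overlapped almost fully. The coefficient of variation over intact wells was 0.44 to 0.56 for MGA in the 4 groups, 0.55 to 0.66 for MAX and 1.03 to 1.496 for MYC.

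The transcripts assigned to MGA differed between the lines more than its total. MGA-207, of 14439 bases, took 21.4% and 34.9% of the MGA counts in A375, and 5.72% and 8.85% in Jurkat. MGA-202 took the largest share in each group, 46.1% and 37.9% in A375 and 53.95% and 40.7% in Jurkat. Long transcripts of 1 gene share most of their bases, so these shares rest on how Kallisto divided shared reads.

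MNT (ENSG00000070444, chr17:2384073-2401104, minus strand), the repressor that is most widely found beside MYC in dividing cells, was close to equal with kit #634413 and lower in Jurkat with kit #634444. It reached 46.9 CPM (43.1 to 50.8) in A375 and 45.97 CPM (42.4 to 49.8) in Jurkat, a log2 fold of -0.03, and then 60.8 CPM (56.1 to 65.7) and 31.2 CPM (27.9 to 34.8), a log2 fold of -0.96. From the mean over all wells in place of the sum, the log2 folds were 0.42 and -0.46. From the mean over intact wells they were 1.5e-05 and -0.85, close to those of the sums. The median Jurkat well was below the median intact A375 well with both kits, at 23.3 against 40.8 CPM and 28.8 against 60.2 CPM. The ranges overlapped, from 0 to 196 and 0 to 108 CPM in Jurkat, and from 0 to 105 and 0 to 142 CPM in intact A375 wells. MNT-201 took 70.2% to 73.8% of the MNT counts in the 4 groups.

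**Figure D3:**
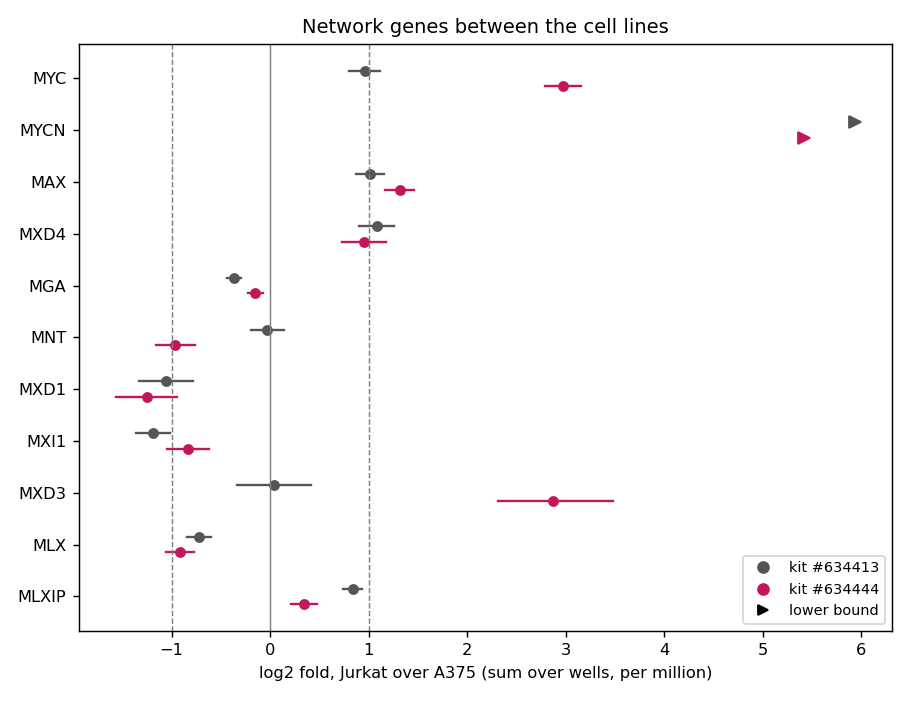
Log2 fold of Jurkat over A375 (x axis) for the 11 network genes with at least 200 counts, by kit, with 95% intervals of the ratio (counting error only). Dashed lines mark 2-fold and triangles are lower bounds. MAX and the bounds of MYCN lie past the dashed line with both kits, MYC and MXD3 with kit #634444 only, and MXD4 with kit #634413 only. On the A375 side, MXD1 lies past it with both kits and MXI1 with kit #634413 only.

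The kits were compared within each line as kit #634444 over #634413. Of all genes tested, 12.3% differed by at least 2-fold in A375 and 23% in Jurkat. Among the members, none passed 2-fold in A375, where MYCN gave no fold. In Jurkat, MYC passed, with 2.49-fold higher CPM with kit #634444 (log2 1.31, 1.21 to 1.42). The other 5 members had log2 folds of 0.49 (MAX), 0.13 (MGA), -0.27 (MYCN), -0.46 (MXD4) and -0.56 (MNT) in Jurkat. On the TPM scale the MYC difference was smaller, at a log2 fold of 0.47, and did not pass. In A375, MYC was lower with kit #634444, with a log2 fold of -0.70, although the median over all wells was 0 CPM with kit #634413 and 3.94 CPM with kit #634444.

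Between genes, levels were compared as TPM, which states transcripts per 1000000 transcripts and so divides by transcript length. With kit #634413 in Jurkat, the order of mean TPM over wells was MAX (80.4 ± 49.9, SD over 18 wells), MYC (51.5 ± 73.1), MXD4 (25.6 ± 43.97), MGA (14.8 ± 7.63), MNT (9.74 ± 18.1) and MYCN (2.614 ± 5.6001). With kit #634444, it was MAX (85.1 ± 45.98), MYC (71.4 ± 85.3), MGA (24.4 ± 26.3), MXD4 (14.7 ± 21.2), MNT (4.96 ± 5.86) and MYCN (2.36 ± 5.19). In A375, MAX also led, at 30.1 ± 33.8 and 28.2 ± 27.9 TPM (21 wells per kit), followed by MGA at 23.2 ± 21.6 and 17.3 ± 15.8 TPM. MYC came next in A375 with kit #634413, at 15.5 ± 28.2 TPM, and below MNT with kit #634444, at 6.49 ± 10.3 TPM. The ranges over wells overlapped for each pair of neighbours in all 4 orders.

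Short transcripts weighed heavily in these TPM. Transcripts under 700 bases took 77.7% of the MYC TPM but 39.996% of the MYC counts in Jurkat with kit #634413, and 47.3% of the TPM but 11.4% of the counts with kit #634444. For MAX the same transcripts took 62.03% to 78.5% of the TPM over the 4 groups. Dividing the summed CPM by the length of the canonical transcript instead gave MAX 60.01 and 84.5 and MYC 33.99 and 84.5 CPM per kilobase in Jurkat, so that the 2 genes were level with kit #634444. In A375, MAX gave 29.7 and 33.99 and MYC 17.5 and 10.8 CPM per kilobase. MNT gave 9.20 and 6.25 CPM per kilobase in Jurkat and MXD4 15.6 and 11.4. No canonical transcript of MGA was among those matched.

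By role, mean TPM of MYC, MYCN and MYCL together was 0.289 and 0.161 times that of the MXD genes and MNT together in A375, and 0.930 and 1.72 times in Jurkat. Over intact wells only, the ratios in A375 were 0.294 and 0.161. The MXD genes and MNT together then summed to 71.7 and 53.3 TPM in A375, above the 58.2 and 43.1 TPM in Jurkat, while over all wells A375 gave 54.8 and 40.6 TPM, below Jurkat. The ratio of MYC to MAX was 0.515 and 0.230 in A375 and 0.640 and 0.839 in Jurkat. MYC and MAX were both counted in 7 of 21 and 11 of 21 A375 wells and in 14 of 18 Jurkat wells with each kit. MAX without MYC was seen in 8 and 5 A375 wells and in 4 and 4 Jurkat wells, and MYC without MAX in 1 well, of A375. MYC had a higher TPM than MAX in 3 and 2 A375 wells and in 8 and 6 Jurkat wells.

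**Figure D4:**
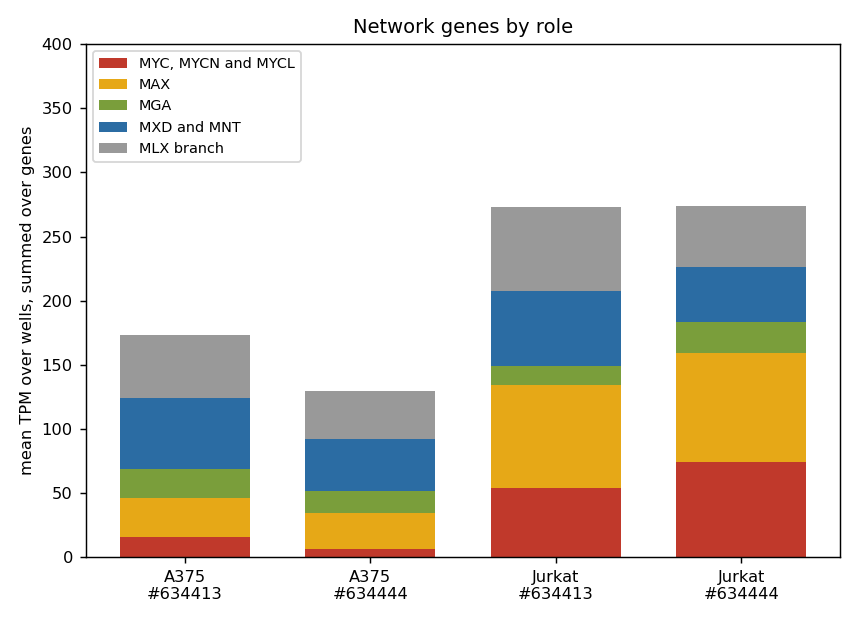
Mean TPM over wells, summed over the genes of each role, in the 4 groups (all wells). MYC, MYCN and MYCL sum to 15.9 and 6.53 TPM in A375 and to 54.1 and 74.01 TPM in Jurkat, while the MXD genes and MNT sum to 54.8 and 40.6 TPM in A375 and to 58.2 and 43.1 TPM in Jurkat. Over intact wells alone, their sum is higher in A375, at 71.7 and 53.3 TPM.

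The network list holds 13 genes, the 6 members included, and 11 passed the count minimum. Of these, 2 were called higher in Jurkat (MYCN and MAX, 18.2%) and 1 higher in A375 (9.09%), against 14.6% and 23.2% of all genes tested. MYCN passed the minimum through Jurkat counts alone, so its call was close to fixed by that filter. The gene called higher in A375 was MXD1, another MAX-bound repressor. It stood at 26.96 and 28.04 CPM in A375 and 12.98 and 11.8 CPM in Jurkat (log2 folds of -1.05 and -1.25). MXI1, a repressor of the same family, had log2 folds of -1.19 and -0.83. MXD3, linked to dividing cells, had log2 folds of 0.04 and 2.87, with levels of 9.64 and 20.3 CPM in Jurkat. A single Jurkat well held 55.2% of its counts with kit #634444 and 2 wells held 70.8%, so this fold rests largely on few cells. MLX, the partner of a parallel branch that senses glucose, had log2 folds of -0.72 and -0.91, and its partner MLXIP had 0.84 and 0.34. MYCL and MLXIPL did not pass the minimum, with 53 and 120 counts over all wells. The list medians were 0.04 and 0.34.

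Long noncoding RNAs are transcribed beside both MYC and MYCN. PVT1, transcribed just downstream of MYC, stood at 17.1 and 16.1 CPM in A375 and at 3.42 and 1.44 CPM in Jurkat, 5.02-fold and 11.2-fold higher in A375. It was counted in 13 of 21 A375 wells with each kit and in 2 of 18 and 4 of 18 Jurkat wells. MYCNOS, antisense to MYCN, had 58 counts in 4 A375 wells and 8.1 counts in 3 with the 2 kits, and 0 and 1 count in Jurkat. It was under the count minimum. Counting was stranded, and nearly all MYCNOS counts came from the line without MYCN counts. Of 5 RNAs listed, 4 were in the tables and only PVT1 passed.

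Partners and regulators of the network were counted as lists. Of 6 corepressor genes through which MXD and MNT act, 1 (16.7%, against 14.6% of all genes) was called higher in Jurkat, the histone deacetylase HDAC1, at 78.2 and 84.7 CPM in A375 and 288 and 274 CPM in Jurkat. Of 9 genes of the MGA complex, 1 (11.1%, against 23.2% of all genes) was called higher in A375, YAF2 (log2 folds of -1.05 and -1.57). None of 12 coactivator genes was called, with medians of 0.22 and 0.10. Among the genes for MYC turnover, the ubiquitin ligase subunit SKP2 had log2 folds of 1.20 and 1.27, and USP28, a deubiquitinase that stabilizes MYC, had -2.10 and -1.90.

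Among 63 genes that MYC is known to raise, all past the minimum, 12 were called higher in Jurkat (19.05%) and 5 higher in A375 (7.94%), against 14.6% and 23.2% of all genes tested. The list medians were 0.24 and 0.40, above the medians over all genes. DUSP2, a phosphatase of MAP kinases, led with 3.85 and 3.06 CPM in A375 and 41.7 and 25.3 CPM in Jurkat (log2 folds of 3.44 and 3.05). PLK4, a kinase of centriole duplication, followed with log2 folds of 2.83 and 2.35, and the replication helicase subunit MCM5 with 2.92 and 2.09. DUSP2 passed the count minimum through its Jurkat counts, so its call was close to fixed by that filter. The share of targets called is thus not fully independent of the filter. The mitotic kinase PLK1 had log2 folds of 3.34 and 1.21, and its level in A375 was 8.30 CPM with kit #634413 and 85.2 CPM with kit #634444. In the opposite direction stood MAP3K6 (-4.38 and -3.84), the mitochondrial transcription factor TFB2M (-2.78 and -1.97), the nucleoside transporter SLC29A2 (-1.85 and -2.67) and the ribosome biogenesis factor RRP12 (-1.75 and -1.52).

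The E-box shown above was found in promoters of 29 of the 53 listed targets with a promoter in the table, or 54.7%, against 8.77% of all genes in it. Of those 29 genes, 9 were called higher in Jurkat and 0 higher in A375, with medians of 0.59 and 0.69. The 9 include DUSP2, whose call was close to fixed by the count minimum. Of the 24 without it, 2 were called higher in Jurkat and 3 higher in A375, with medians of 0.06 and 0.28. Of all genes tested, 14.6% were called higher in Jurkat and 23.2% higher in A375. The other called targets, MCM5 on the Jurkat side and RRP12 and SLC29A2 on the A375 side, had no promoter in the table. Calls were not counted for all genes with the E-box, and the part of the E-box in these values was not tested. The lactate dehydrogenase gene LDHA, whose E-box lies 185 bases before a start, had log2 folds of 2.23 and 1.68. ODC1, the first enzyme of polyamine synthesis, had log2 folds of 1.31 and 1.99. The list gathers known targets, so its share of E-boxes is not independent of the choice of genes.

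**Figure D5:**
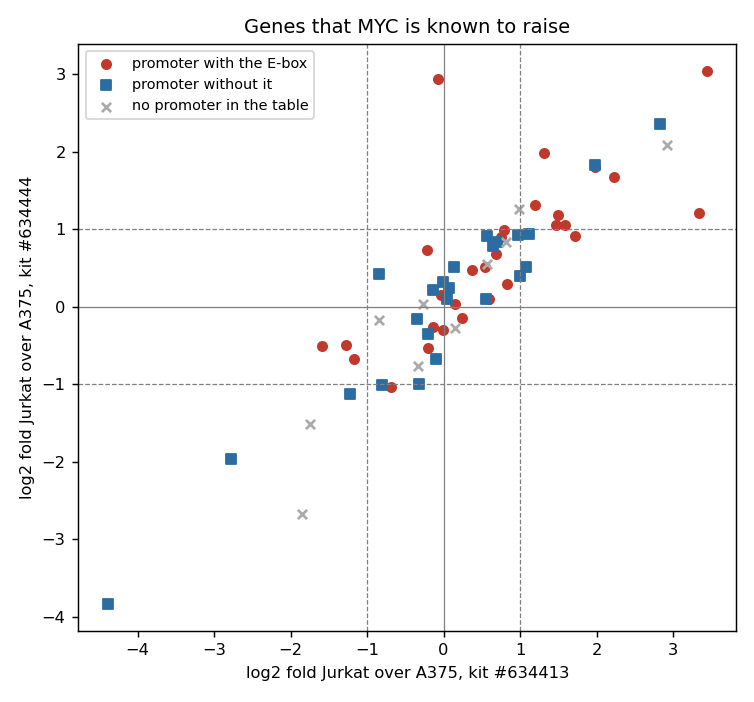
Log2 fold of Jurkat over A375 with kit #634413 (x axis) and kit #634444 (y axis) for the 63 genes that MYC is known to raise, marked by whether a promoter in the table holds the E-box. Dashed lines mark 2-fold. Among genes with a promoter in the table, the upper right corner holds 9 with the E-box and 2 without it. The lower left corner holds 0 with it and 3 without it.

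Of 8 genes that MYC is known to lower, 7 passed the minimum and 4 were called higher in A375 (57.1%, against 23.2% of all genes). They were the cell cycle inhibitor CDKN1A (21.7 and 55.5 CPM in A375, 0 and 0.574 CPM in Jurkat), the growth arrest gene GADD45A (32.4 and 34.5 against 0.835 and 6.89 CPM), the matrix gene THBS1 (509 and 203 against 0.911 and 1.24 CPM) and the receptor gene PDGFRB (14.3 and 10.4 against 0.304 and 0 CPM). These 4 genes passed the count minimum through their A375 counts, so their calls were close to fixed by that filter. The share of 57.1% is thus not independent of it. THBS1 and PDGFRB are genes of adherent cells, and the part of cell type in these values was not tested.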

How the data were processed

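Single A375 and Jurkat cells were sequenced as total RNA with 2 kits. According to the methods, the authors trimmed reads with cutadapt and quantified Ensembl transcripts and ERCC spikes with Kallisto (kallisto 0.43.1 in the submitters' processing notes, build hg38) in stranded mode. The authors deposited estimated counts and TPM per transcript for each well, neither pooled nor filtered. Transcripts were assigned to genes with GENCODE v44: 195850 of 200206 matched, and the other 4356 held 5.21% of Ensembl counts. Counts were summed per gene and well, then per line and kit, and divided by protein coding counts (Python 3.11.15, scipy 1.17.1). Sums under 3 counts were set to 3. The fold and interval code was tested on simulated data. Alternatives used other wells, averages, minimums and scalings (edgeR 4.0.16, DESeq2 1.42.0, factors only). No test across cells was made. Named genes were the members, the other network genes and the melanoma markers. Also named were up to 4 called genes per list and direction by mean log2 fold, and the genes most like each member (Spearman, Jurkat, #634413). The members and lists were chosen with earlier results of these data known. The full count of the turnover list is not reported here.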

Additional observations from a re-analysis of the deposited data

How the results depend on the processing

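The count of members past 2-fold between the lines was 2. It was 4 (MYC and MXD4 added) when scaled to all Ensembl counts and with edgeR TMM factors. It was 3 with DESeq2 factors (MYC added), with the mean over all wells (MXD4 added), with the mean over intact wells (MYC added) and with mean TPM over all wells (MYC and MXD4 added, MYCN without a fold). Over intact wells, the mean TPM of MAX was 42.2 in A375 and 80.4 in Jurkat with kit #634413, under 2-fold. With the median over wells the count stayed 2, with MYC in place of MYCN. There the A375 median of MYC with kit #634413 was 0 CPM and was set to a floor of 0.24 CPM. Its log2 fold of 8.42 is thus a lower bound. MYCN had no fold because its medians were 0 in both lines. The count of members was between 1 and 3 when 1 well or 1 block of indexes was left out. These repeats and the mean over intact wells were chosen after seeing the data. Of the 78 repeats without 1 well, MYCN was called in 78, MAX in 61, MYC in 11 and MXD4 in 9. MAX, MYC and MXD4 were each close to 2-fold with 1 kit. MYCN, with no counts in A375, was nearly bound to be called in each repeat. Between kits, 1 member passed in A375, where none did before, with the mean over wells, the median over wells and the mean TPM, and 0 passed in Jurkat with the mean TPM. That member was MYC, with log2 folds of -1.52 and -1.26 from the means over all wells and of 4.03, the opposite direction, from the median. From the mean CPM over intact wells, the log2 fold was -0.66 and did not pass. The value of 4.03 is a lower bound, since the MYC median with kit #634413 was 0 CPM and was set to a floor of 0.24 CPM. The median with kit #634444 was 3.94 CPM, from a well with 2.2 counts. The share of all genes past 2-fold between kits in A375 was 23.5%, 30.3% and 20.8% under these 3 settings. The share called higher in A375 was 12.997% with mean TPM, and the share called higher in Jurkat was 7.74% with a minimum of 1 count. Of all calls between the lines, 38.7% were higher in Jurkat, against 55.1% with mean TPM, which moved the median of all genes to 0.19 and 0.15. No member fold that passed 2-fold in the values reported turned its direction under these alternatives. Of 202 repeated log2 folds of members, 57 fell outside the counting interval of the value reported. Thinning to 1 total left each share of wells with a count of a member within its binomial interval, and this total does not even out the protein coding share, which was under 50% in 2 of the A375 wells. The causes of these shifts were not tested. No paired analysis was possible because the wells carry no pairing and each line and kit is 1 sample.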

Other observations

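The genes whose levels followed a member most closely over the 18 Jurkat wells of kit #634413 were ranked by Spearman's rho among 6844 protein coding genes. For MYC these were ERGIC1, a protein of the early secretory pathway (rho of 0.77), the chromatin remodelling factor BAZ1A (0.73), SELENOT (0.71), SVIP (0.71) and PITPNB (0.71). In the 18 Jurkat wells of kit #634444, which did not enter the ranking, the same genes gave -0.30, 0.33, 0.23, -0.24 and 0.13. For MAX, CSGALNACT2 (0.79) and RSF1 (0.79) led, and gave 0.29 and -0.49 with the other kit. MFSD14B (0.85) and ANKRD50 (0.81) led for MXD4, AGAP1 (0.79) and BCR (0.78) for MGA, and TMEM245 (0.82) and TBC1D2B (0.68) for MNT. With the other kit these 6 gave -0.08, 0.38, -0.33, -0.03, 0.06 and -0.02. The wells differ in depth and in their block of library indexes, which these values do not take into account, and the leading values of so many genes over 18 wells carried over to the other kit weakly or not at all.

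Between members, MAX and MXD4 had the highest rho in Jurkat with kit #634413, at 0.64, and gave 0.38 with kit #634444. Both genes differed between index blocks, and within blocks of 6 wells their rho ran from -0.03 to 0.64 (#634413) and from 0.09 to 0.49 (#634444). In intact A375 wells the same pair gave 0.12 and 0.12. MGA and MAX gave 0.48 and 0.31 in Jurkat and -0.40 and -0.27 in A375, and MXD4 and MNT gave 0.39 and 0.52 in A375 and 0.07 and 0.03 in Jurkat.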
